A study of Mus musculus with 6 samples.

Results

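The genes described here make the machinery that copies DNA in S phase and the signals that start it. They are 39 of the 37991 genes in the count files, chosen by name as replication licensing, origin firing, nucleotide supply and S phase entry genes and matched by Ensembl identifier. All 39 were matched and all 39 were among the 15035 genes with enough counts to test. RNA came from Nestin-GFP+ cells, sorted by a reporter that shines where regulatory sequence of the Nestin gene is active, from mouse pups aged 3 days, out of the dermis with its underlying white fat. The title of the series calls them pericytes, the mural cells of small vessels. The 3 control mice are Nes-GFP, with the reporter alone. The 3 mutant mice are Nes-GFP;Nes-Cre;PDGFRα+/[S]D842V, which joins the reporter, the Nestin-driven Cre recombinase and 1 Pdgfra allele with the constitutively active D842V change of that growth factor receptor. The sources used here do not say what "[S]" means. The control lacks Nestin-Cre, so the recombinase and the allele cannot be told apart. Cells were taken by the activity of the Nestin sequence and not by cell cycle stage, and the sources used here name no strain, litter, sex or batch. Each library held between 11912469 and 18792939 counts in genes.

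Replication is prepared in G1 and carried out in S phase. The origin recognition complex marks a start site, and CDC6 and CDT1 then load the ring-shaped MCM helicase on it, a step known as licensing that geminin later blocks by binding CDT1. At the onset of S phase, CDC45 and the GINS complex join the MCM ring and switch it on. Primase and the DNA polymerases then copy both strands, held on the template by the sliding clamp PCNA. Many of these genes are known targets of E2F transcription factors, which are freed when cyclin-dependent kinases inactivate the retinoblastoma protein. Their transcripts are therefore commonly read together as a sign of cells in or near S phase.

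Most of the 39 genes did not pass the test between mutant and control cells, and the 6 that did were spread over several steps of replication. Ccne2, Pole, Cdc6, Pole2 and Gins3 fell and Gins2 rose. Ccne2 encodes cyclin E2, an activator of CDK2 at S phase entry. Pole and Pole2 encode subunits of DNA polymerase epsilon, the main polymerase of the leading strand. The 5 falls were 12.8% of the 39 genes, where edgeR called 9.13% of all tested genes lower. The 1 rise was 2.56% of them, where 8.63% of all tested genes were called higher. In either direction 17.8% of all tested genes were called, a call being an adjusted p under 0.05. The share of members called lower was thus near the background. The 5 became 3 when the third library of either group was left out, Cdc6, Pole and Ccne2 in both cases. That was 7.69% of the members, where 5.275% (without control 3) and 4.95% (without mutant 3) of all tested genes were called lower. The members' median log2 fold change, mutant over control, was -0.02, against 0.01 over all tested genes. It turned positive under upper-quartile scaling and when control replicate 2 was left out, where it came to 0.0075 and 0.02. Single members ran from -0.79 to 0.41, with 23 below 0 and 16 above. Summed over all 39 genes, control libraries held 1778, 1947 and 1762 CPM (read counts scaled by library size) and mutant libraries 1753, 1773 and 1759. Control replicate 2 was the highest, and the groups overlapped.

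**Figure D1:**
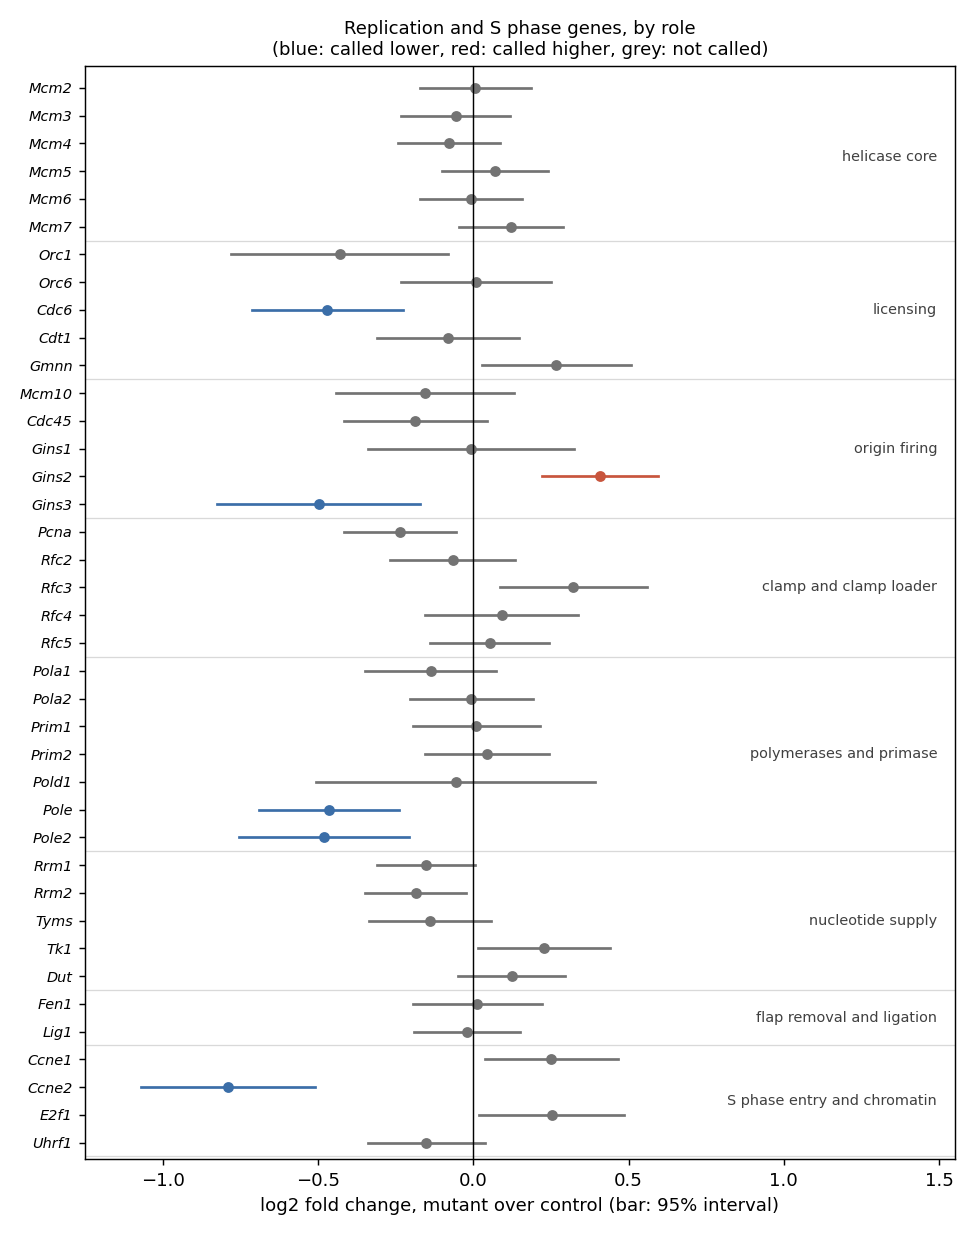
Log2 fold change of each of the 39 genes (x axis, mutant over control), grouped by role on the y axis, with its 95% interval from the edgeR fit. Colour marks the calls: Ccne2 lies farthest left at -0.79, Gins2 farthest right at 0.41, and the 6 helicase core genes lie within 0.12 of 0.

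Promoter sequences are shown for members that fell and for members with values alike in both groups, so that the E2F-type letters of each can be compared. RefSeq promoters of the GRCm38.p6 build, 250 bases before to 50 after a gene's annotated start, were at hand for 31 of the 39 genes. The letters searched on both strands were TTTCCCGC, TTTCGCGC, TTTGCCGC and TTTGGCGC. They were present in 14 of the 31 genes (45.2%), against 2.61% of all 27018 genes in the table. Of those 14 genes, 3 were called lower (Cdc6, Gins3 and Pole2) and 11 were not called. Beside those 3, Orc1 and Rfc3 of the 14 had an unadjusted edgeR p under 0.05. Of the 17 genes without a match, edgeR, DESeq2 and limma-voom each called 0, and 5 had an unadjusted edgeR p under 0.05. Whether the calls go with the letters was not tested. Of all tested genes, 9.13% were called lower. The other 3 called genes have no entry. Each sequence below is the 160 bases directly before the start, 5′ to 3′ on the gene's strand, with the E2F-type letters of either strand in capitals. The first pair are the called genes with a match upstream of the start, Cdc6 at chr11:98907991-98908150 (plus strand) and Gins3 at chr8:95633399-95633558 (plus strand).
Cdc6: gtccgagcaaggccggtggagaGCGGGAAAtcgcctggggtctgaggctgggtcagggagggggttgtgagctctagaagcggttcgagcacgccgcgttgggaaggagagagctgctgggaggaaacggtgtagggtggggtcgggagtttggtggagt
Gins3: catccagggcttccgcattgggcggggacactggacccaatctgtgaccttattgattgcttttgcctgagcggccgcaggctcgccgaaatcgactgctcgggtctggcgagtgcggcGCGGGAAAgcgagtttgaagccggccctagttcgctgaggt
The second pair, chosen after the values were seen, are helicase genes that were not called, Mcm6 at chr1:128359706-128359865 (minus strand) and Mcm5 at chr8:75109349-75109508 (plus strand).
Mcm6: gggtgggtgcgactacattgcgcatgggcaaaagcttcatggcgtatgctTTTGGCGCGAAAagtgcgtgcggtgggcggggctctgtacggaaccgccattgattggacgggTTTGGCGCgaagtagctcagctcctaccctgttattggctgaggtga
Mcm5: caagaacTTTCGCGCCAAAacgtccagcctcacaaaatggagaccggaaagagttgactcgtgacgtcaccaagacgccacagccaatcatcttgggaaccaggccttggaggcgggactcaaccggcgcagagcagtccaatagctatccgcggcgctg
Cdc6 and Gins3 each hold 1 match, beginning 138 and 41 bases before the start. Mcm6 holds 3, of which the first 2 overlap, and Mcm5 holds 2 that overlap. The letters CCAAT were found in 54.8% of the 31 genes and 41.1% of all genes, and GGGCGG in 77.4% and 38.2%. TTTGAA was found in 12.9% and 20.2%. Matches are letters in a window and do not show that a factor binds there.

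The 6 genes of the helicase ring itself, Mcm2 to Mcm7, showed no called difference. Mcm6, the most abundant of them, stood at 134.9, 154.8 and 136.0 CPM in control and 140.3, 142.8 and 140.1 CPM in mutant libraries. The mutant values lay inside the control range (142 ± 11.2 and 141 ± 1.53 CPM, SD, n = 3 each), and the log2 fold change was -0.01 (SE 0.08, edgeR adjusted p = 0.957). Mcm7 had the highest fold change of the ring at 0.12 (edgeR adjusted p = 0.297) and Mcm4 the lowest at -0.08 (edgeR adjusted p = 0.502). Mcm2, Mcm3 and Mcm5 had log2 fold changes of 0.01, -0.06 and 0.07. The groups overlapped in all 6 genes. EdgeR called 0 of 6, DESeq2 0 and limma-voom 0, and 0 had an unadjusted edgeR p under 0.05. Summed over the ring, control libraries held 544, 576 and 521 CPM and mutant libraries 563, 550 and 537 CPM. The 95% intervals of the 6 fold changes together ran from -0.24 (the lower bound of Mcm4) to 0.29 (the upper bound of Mcm7) on the log2 scale. These bounds are 0.845 and 1.22 times control and come from different genes. For each gene, changes inside its own interval were not excluded.

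Among the licensing genes, Cdc6, whose protein loads the ring together with CDT1, fell and the others did not pass the test. Cdc6 measured 18.7, 17.5 and 16.1 CPM in control and 11.9, 13.1 and 12.7 CPM in mutant libraries. Every mutant value lay below every control value. The mean dropped by 27.8%, from 17.4 ± 1.32 to 12.6 ± 0.634 CPM (SD, n = 3), with a log2 fold change of -0.47 (SE 0.11, edgeR adjusted p = 0.0144). Orc1, the largest subunit of the origin recognition complex, was the least abundant member per kilobase of exon. It gave 6.08, 6.96 and 5.89 CPM in control and 4.63, 4.68 and 4.70 CPM in mutant libraries. Its groups did not overlap, but its log2 fold change of -0.43 missed the threshold (edgeR adjusted p = 0.0834). Orc6, another subunit and the most abundant licensing gene, gave 22.1, 27.4 and 28.6 CPM in control and 27.3, 27.2 and 24.0 CPM in mutant libraries. These overlapped (log2 fold change 0.01, SE 0.11, edgeR adjusted p = 0.967). Cdt1 overlapped too, at 21.6 to 27.0 CPM in control and 21.5 to 23.7 CPM in mutant libraries (log2 fold change -0.08, edgeR adjusted p = 0.637). Gmnn, which encodes geminin, lay at 13.4 to 15.5 CPM in control and at 16.4 to 18.5 CPM in mutant libraries. Its mutant values were all above the controls, with a log2 fold change of 0.27 that missed the threshold (edgeR adjusted p = 0.114).

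The origin firing genes held the 1 rise, and 2 subunits of the same complex were called in opposite directions. GINS is a small complex that bridges the MCM ring and CDC45. Its subunit Gins2 gave 27.7, 31.7 and 29.3 CPM in control and 41.1, 38.9 and 37.70 CPM in mutant libraries. Every mutant library was above every control library. The mean went from 29.6 ± 2.01 to 39.2 ± 1.71 CPM (SD, n = 3), a rise of 32.7% (log2 fold change 0.41, SE 0.09, edgeR adjusted p = 0.00805). Gins3 gave 9.86, 8.14 and 9.09 CPM in control and 7.11, 5.79 and 6.34 CPM in mutant libraries. Here every mutant library was below every control library, and the mean dropped by 29.2% (log2 fold change -0.50, SE 0.15, edgeR adjusted p = 0.0388). The Gins3 call did not hold throughout. With 1 control left out, Gins3 had an edgeR adjusted p of 0.087 (replicate 1), 0.0532 (replicate 2) or 0.0981 (replicate 3). With 1 mutant left out, it was 0.106 (replicate 2) or 0.104 (replicate 3). The adjusted p of Gins3 was 0.0722 in DESeq2 and 0.0506 with upper-quartile scaling in edgeR, in a range of 0.0307 to 0.106 over 14 alternatives. Gins1 overlapped between groups, with a log2 fold change of -0.01. Cdc45 lay at 18.4 to 21.5 CPM in control and 16.3 to 18.2 CPM in mutant libraries, without overlap and without a call (log2 fold change -0.19, edgeR adjusted p = 0.243). Mcm10, an initiation factor that binds the ring but is no part of it, overlapped (log2 fold change -0.16, edgeR adjusted p = 0.447).

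Gins2 and Ccne2 share exon bases with a gene on the other strand, and the sources used here do not say whether counting took strand into account. Without strand, reads from the shared bases cannot be told apart. The counts include a row named ambiguous, 1 of the 5 rows that name no gene, which stayed out. Whether reads from shared bases were put in that row is not stated. Gins2 shares 2758 of its 4097 exon bases with Gse1, which held 7465 counts in all against 3192 for Gins2. Gse1 stood at 67.3, 75.0 and 73.8 CPM in control and 89.1, 104 and 76.1 CPM in mutant libraries. Gse1 was thus also higher in all 3 mutant libraries, with a log2 fold change of 0.32 that was not called (edgeR adjusted p = 0.06, range 0.00522 to 0.19 over 14 alternatives). Its part in the Gins2 result was not tested. Ccne2 shares 609 of its 3495 exon bases with Ints8, whose log2 fold change was -0.24 (edgeR adjusted p = 0.112). The part of Ints8 was not tested either. In all, 13 members share exon bases with a gene on the other strand. Among them, Fen1 shares 1909 bases with Gm10143 and Rfc2 shares 952 with Lat2. Mcm7 shares 321 bases with Ap4m1 and 64 with Cops6, and Pole shares 78 with Gm15792.

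**Figure D2:**
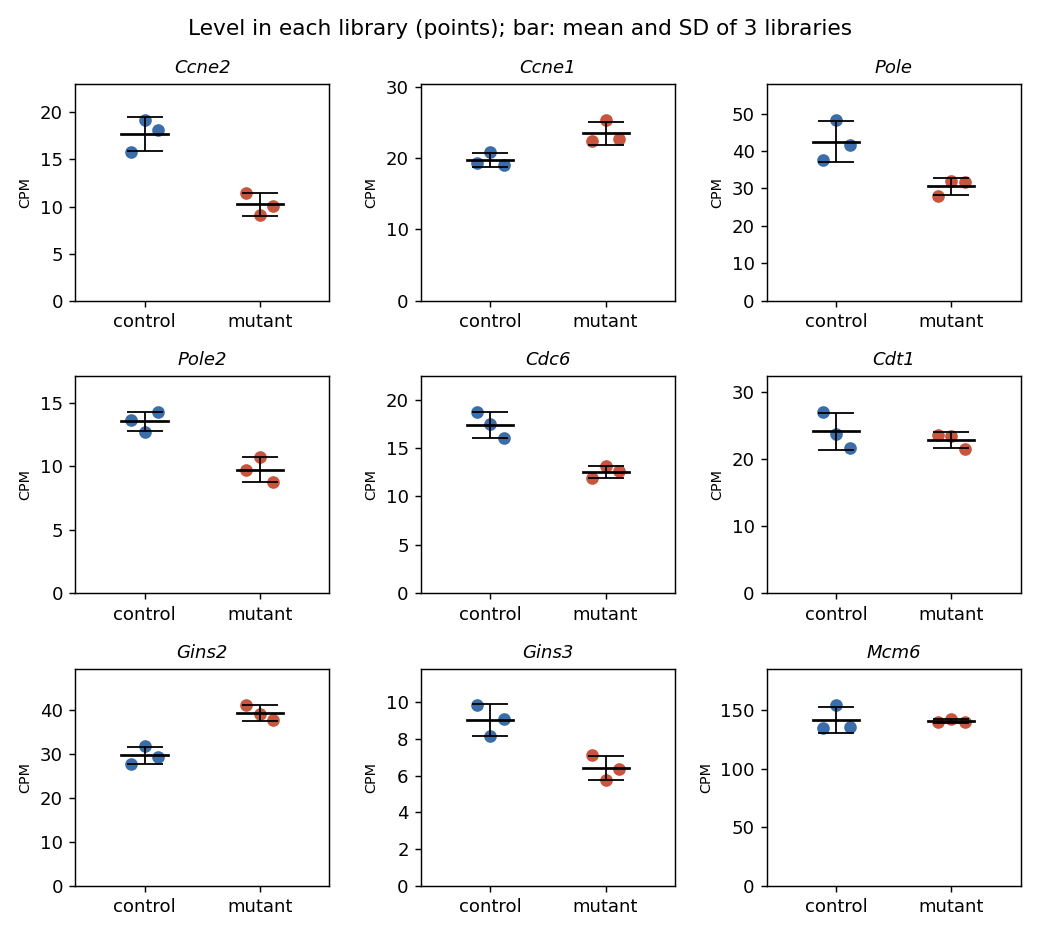
CPM (y axis, from 0) of the 6 called genes and of Ccne1, Cdt1 and Mcm6 in each library, 1 point per library, control and mutant on the x axis, with the mean and SD of 3 libraries as bars. In the called genes the groups do not overlap, with Gins2 higher in mutant at 39.2 against 29.6 CPM and Ccne2 lower at 10.2 against 17.7 CPM.

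The clamp and its loader had no called gene. Pcna, the sliding clamp and the most abundant member, measured 157, 185 and 178 CPM in control and 139, 157 and 146 CPM in mutant libraries. The highest mutant value was just below the lowest control value. Means were 174 ± 14.4 and 147 ± 9.38 CPM (SD, n = 3), with a log2 fold change of -0.24 (SE 0.08, edgeR adjusted p = 0.0678). Pcna crossed the threshold without control replicate 1 and with no filter on low counts, in a range of 0.0184 to 0.221 over 14 alternatives. Rfc3, a subunit of the loader that opens the clamp, lay on the other side, at 18.1 to 22.5 CPM in control and 23.9 to 27.9 CPM in mutant libraries. Its log2 fold change was 0.32 (edgeR adjusted p = 0.0593), and its range of 0.0348 to 0.176 also crossed the threshold. The loader subunits Rfc2, Rfc4 and Rfc5 had log2 fold changes of -0.07, 0.09 and 0.05, and their groups overlapped. Of the 5 genes, edgeR called 0, DESeq2 0 and limma-voom 0, while unadjusted edgeR p-values under 0.05 fell to 2, Pcna and Rfc3.

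Among the polymerases, the epsilon genes Pole and Pole2 fell, and the other 5 genes did not pass the test. The small epsilon subunits Pole3 and Pole4, which are not among the 39 and are added here after their values were seen, were not called (log2 fold changes 0.14 and -0.10, edgeR adjusted p = 0.264 and 0.487). Pole, the catalytic subunit, gave 37.5, 48.3 and 41.5 CPM in control and 28.0, 32.1 and 31.8 CPM in mutant libraries. Its groups did not overlap, and the mean dropped by 27.6%, from 42.4 ± 5.50 to 30.6 ± 2.29 CPM (log2 fold change -0.47, SE 0.10, edgeR adjusted p = 0.0105). Pole2, the B subunit of the same enzyme, gave 13.6, 12.8 and 14.3 CPM in control and 9.73, 10.7 and 8.76 CPM in mutant libraries. It too dropped without overlap, by 28.3% (log2 fold change -0.48, SE 0.13, edgeR adjusted p = 0.0218). The Pole2 call was lost without control replicate 3 (edgeR adjusted p = 0.0792), mutant replicate 1 (0.0528) or mutant replicate 3 (0.0942), and ran from 0.0106 to 0.0942 over 14 alternatives. Pold1, the catalytic subunit of delta, which copies the lagging strand, scattered most. It measured 46.9, 57.7 and 36.4 CPM in control and 39.7, 41.1 and 54.1 CPM in mutant libraries (log2 fold change -0.06, SE 0.19, edgeR adjusted p = 0.867). The alpha and primase genes, which lay down the starting primers, overlapped between groups. Pola1, Pola2, Prim1 and Prim2 had log2 fold changes of -0.14, -0.01, 0.01 and 0.04.

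No gene of nucleotide supply was called. Rrm1, the large subunit of ribonucleotide reductase, which makes the deoxynucleotides, stood at 124.0, 133.9 and 120.9 CPM in control and 117.8, 112.9 and 110.0 CPM in mutant libraries (log2 fold change -0.15, SE 0.07, edgeR adjusted p = 0.168). Rrm2, the small subunit whose level is known to follow S phase, stood at 83.6, 94.7 and 93.4 CPM in control and 79.6, 79.5 and 79.7 CPM in mutant libraries. The mutant values of both subunits were below every control value by a small margin. For Rrm2 the log2 fold change was -0.19 and missed the threshold (edgeR adjusted p = 0.106, 0.0403 without control replicate 1, range 0.0403 to 0.284 over 14 alternatives). Of the genes that make and guard thymidine nucleotides, Tyms had a log2 fold change of -0.14, Tk1 of 0.23 and Dut of 0.12, and their groups overlapped. EdgeR, DESeq2 and limma-voom each called 0 of the 5 genes, and 2 had an unadjusted edgeR p under 0.05, Rrm2 on the lower side and Tk1 on the higher.

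Flap removal and ligation finish the lagging strand. Lig1, the ligase that seals its fragments, gave 80.9, 84.4 and 73.0 CPM in control and 75.2, 79.6 and 80.1 CPM in mutant libraries. These overlapped (log2 fold change -0.02, SE 0.08, edgeR adjusted p = 0.891). Fen1, the nuclease that trims the flaps, had a log2 fold change of 0.01 (edgeR adjusted p = 0.942). EdgeR, DESeq2 and limma-voom each called 0 of the 2, and 0 had an unadjusted edgeR p under 0.05.

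In the S phase entry group Ccne2 had the lowest log2 fold change of all 39 genes. It measured 15.8, 19.2 and 18.1 CPM in control and 11.5, 9.10 and 10.1 CPM in mutant libraries. Its groups were well apart, and the mean dropped by 42.2%, from 17.7 ± 1.77 to 10.2 ± 1.19 CPM (SD, n = 3). The log2 fold change was -0.79 (SE 0.13, 95% interval -1.07 to -0.51, edgeR adjusted p = 0.00232). Ccne1, which encodes the partner cyclin E1, stood at 19.3, 20.9 and 19.01 CPM in control and 22.4, 25.4 and 22.7 CPM in mutant libraries. All 3 mutant values were above the controls, with a log2 fold change of 0.25 that missed the threshold (edgeR adjusted p = 0.0977). E2f1, an activator of S phase genes, overlapped at 27.8 to 36.6 CPM in control and 35.6 to 41.8 CPM in mutant libraries (log2 fold change 0.25, edgeR adjusted p = 0.124). Uhrf1, which carries DNA methylation over to the new strand, gave 105.2, 119.2 and 95.2 CPM in control and 94.4, 93.7 and 99.3 CPM in mutant libraries. These overlapped (log2 fold change -0.15, SE 0.09, edgeR adjusted p = 0.248).

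Counted by overlap alone, 14 members had groups apart. The mutant was below control in 10 (25.6%, against 18.6% of all tested genes) and above it in 4 (10.3%, against 19.2%). The 10 are the 5 called genes with Orc1, Cdc45, Pcna, Rrm1 and Rrm2, and the 4 are Gins2, Gmnn, Rfc3 and Ccne1. On leaving out 1 library, the 4 became 11 (control 2) or 8 (mutant 2), and the 10 became 15 (control 3). With fewer libraries such counts can only stay or rise, and the shares over all tested genes were not recomputed.

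Ratios between partner genes, taken per kilobase of exon within each library, restate the changes given above. These ratios carry no test of their own. Ccne2 per Ccne1 was 0.62, 0.70 and 0.726 in control and 0.39, 0.273 and 0.338 in mutant libraries. Gins3 per Gins2 was 0.538, 0.388 and 0.47 in control and 0.262, 0.225 and 0.254 in mutant libraries. In both pairs the groups were apart. This had to be so, as 1 gene of each pair was lower and its partner higher in every mutant library. Cdc6 per Cdt1 was 0.434 ± 0.0161 in control and 0.33 ± 0.0269 in mutant, and Gmnn per Cdt1 was 1.29 ± 0.201 and 1.62 ± 0.0699 (SD, n = 3). The ratio of Pole2 per Pole overlapped between groups, at 1.26 ± 0.206 in control and 1.24 ± 0.15 in mutant.

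Levels were also taken as CPM per kilobase of exon, where the length counts every annotated exon base of a gene. That length can exceed the length of a transcript, so the order depends on the annotation. Pcna came first, at 72.3 ± 5.98 in control and 61.4 ± 3.91 in mutant (SD, n = 3). Rrm2 at 32.7 and Mcm6 at 30.4 came next in control, and the 6 ring genes lay between 11.8 and 30.4. The 5 genes called lower all stood low in this order, between places 29 and 37 of 39. Ccne2 went from 5.06 in control to 2.92 in mutant, Pole2 from 4.71 to 3.38 and Pole from 3.80 to 2.74. Gins3 went from 3.33 to 2.37 and Cdc6 from 3.33 to 2.40, and control levels of Gins3 and Cdc6 did not differ beyond their spread. Orc1 was last at 1.81 in control and 1.34 in mutant. Every member was well above the depth limit: the lowest count of any member in any library was 69.

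**Figure D3:**
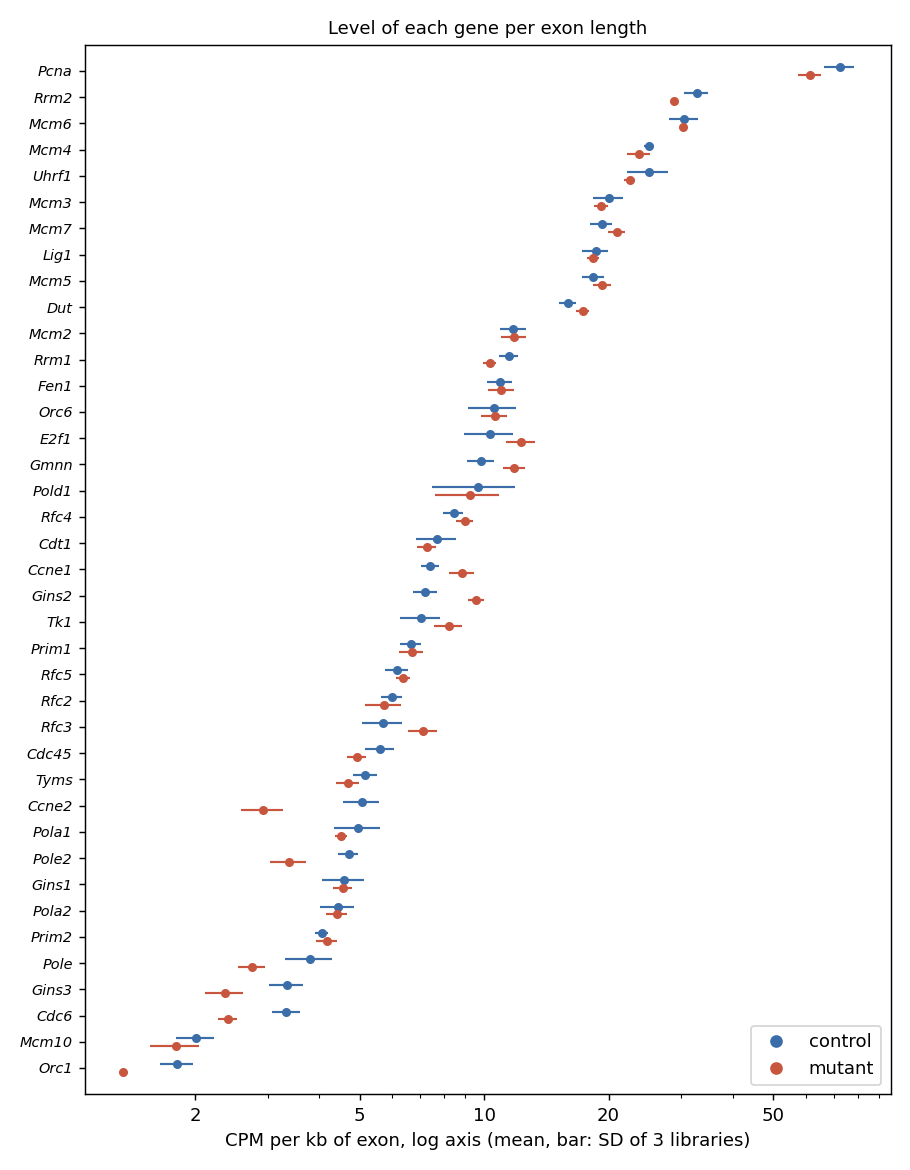
Level of each of the 39 genes (x axis, CPM per kilobase of exon, log scale) in order of the control mean, with control and mutant means and their SD (n = 3 each). Pcna is at the top with 72.3 in control and 61.4 in mutant, and Orc1 at the bottom with 1.81 and 1.34.

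Other genes of the pathway were counted from lists drawn up by function. Of 48 further replication genes, edgeR called 7 lower (14.6%) and 1 higher (2.08%), with a median log2 fold change of -0.10. Of all tested genes, 9.13% were called lower and 8.63% higher. On leaving out 1 library the number called lower ran from 4 (control 2) to 9 (control 1). In these fits 5.77% and 9.8% of all tested genes were called lower. The 1 higher became 2 or 0 in 5 of the 6 fits with a library left out. Cdc7, the kinase that fires licensed origins, stood at 35.9, 39.9 and 43.1 CPM in control and 25.5, 27.6 and 27.0 CPM in mutant libraries (log2 fold change -0.57, SE 0.09, edgeR adjusted p = 0.00208). Its groups did not overlap. Hells, a chromatin remodeller (-0.63), Top1, the topoisomerase that relieves twist ahead of the fork (-0.50), and Wdhd1, which ties the helicase to polymerase alpha (-0.46), were called lower too. Cdc7 and these 3 genes were called in all 14 alternatives. The others called lower were Slbp, which binds histone messages, the histone chaperone Nasp and the origin subunit Orc4. Rnaseh2a, of the nuclease that removes RNA from DNA, was called higher.

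Of 24 further nucleotide supply genes, edgeR called 5 lower (20.8%) and 1 higher (4.17%), against 9.13% and 8.63% of all tested genes. Their median log2 fold change was -0.16. Mthfd2, a mitochondrial enzyme of folate metabolism, stood at 21.1, 20.8 and 20.5 CPM in control and 14.0, 12.03 and 10.5 CPM in mutant libraries (log2 fold change -0.77, edgeR adjusted p = 0.00177). Cad, which starts pyrimidine synthesis, had a log2 fold change of -0.39 (edgeR adjusted p = 0.00943). Shmt1, another folate enzyme, was called higher at 0.46 and Rrm2b, an alternative reductase subunit, lower at -0.49. Neither call held throughout. The Shmt1 call was lost when control 1 or 2 or mutant 2 or 3 was left out, with an edgeR adjusted p of up to 0.0614. The Rrm2b call was lost when control 2 or 3 or mutant 1 or 3 was left out, with an edgeR adjusted p of up to 0.102. The number called lower became 2 on leaving out the third library of either group and 3 on leaving out the second. In these fits 4.95% to 6.87% of all tested genes were called lower.

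Of 25 further S phase entry genes, edgeR called 5 lower and 2 higher, with a median log2 fold change of -0.15. Of all tested genes, 9.13% were called lower and 8.63% higher. The share of this list called lower was above that background, and the share called higher was just below it. Cdkn1c, which encodes the CDK inhibitor p57, rose from 226, 302 and 277 CPM in control to 558, 520 and 576 CPM in mutant libraries (log2 fold change 1.04, edgeR adjusted p = 1.1e-04). The groups were far apart, and the call held in all 14 alternatives. Mycn, a growth-promoting transcription factor, fell (log2 fold change -0.60, edgeR adjusted p = 0.00889). Rbl1, a relative of the retinoblastoma protein, and Lin54, a subunit of complexes that regulate cell cycle genes, were called lower at -0.34 and -0.41. The Rbl1 call was lost without control replicate 2 (edgeR adjusted p = 0.053). On leaving out 1 library the number called lower became 2 (control 2), 3 (control 3 or any mutant) or 7 (control 1). The number called higher became 1 without any 1 control or mutant 2 or 3. Over all tested genes, 4.95% to 9.8% were called lower and 4.33% to 7.83% higher when 1 library was left out.

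Genes of the next stage of the cycle were called lower more widely than the 39 replication genes, although the difference between lists was not tested. Of 33 mitosis and G2/M genes, edgeR called 17 lower (51.5%) and 0 higher, against 9.13% and 8.63% of all tested genes. Their median log2 fold change was -0.30. DESeq2 called 16 lower and 0 higher, limma-voom 15 and 0, and by unadjusted edgeR p under 0.05, 22 were lower and 1 higher. The unadjusted counts cannot be set against 9.13% and 8.63%, which are shares by adjusted p. On leaving out 1 library the number edgeR called lower became 8 (control 3), 9 (mutant 2 or 3), 10 (control 2), 15 (mutant 1) or 20 (control 1). The share of all tested genes called lower moved too in these fits. It was 5.275% (control 3), 6.87% (mutant 2), 4.95% (mutant 3), 5.77% (control 2), 7.12% (mutant 1) and 9.8% (control 1). Without mutant 2 there was 1 called higher. Over all 14553 tested genes with a known exon length, the log2 fold change ran lower in longer genes (Spearman -0.20 across genes, which are not independent replicates, and -0.16 across the 39 replication genes). The part of exon length in these calls was not tested. Mki67, the proliferation marker, stood at 329, 323 and 335 CPM in control and 249, 252 and 261 CPM in mutant libraries, and Anln, of the dividing cell's contractile ring, at 99.2, 101 and 101 CPM against 71.4, 61.9 and 65.3 CPM. Summed over the list, control libraries held 2065 to 2255 CPM and mutant libraries 1625 to 1812 CPM, without overlap. Of 8 tested genes of the D cyclins, CDK4/6 and the INK4 inhibitors, which act before S phase, edgeR called Ccnd2 lower (log2 fold change -0.39) and Ccnd3 higher (0.43), and 2 were called lower without mutant 1. In bulk RNA such as this, fewer cells of a kind and less RNA per cell cannot be told apart.

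**Figure D4:**
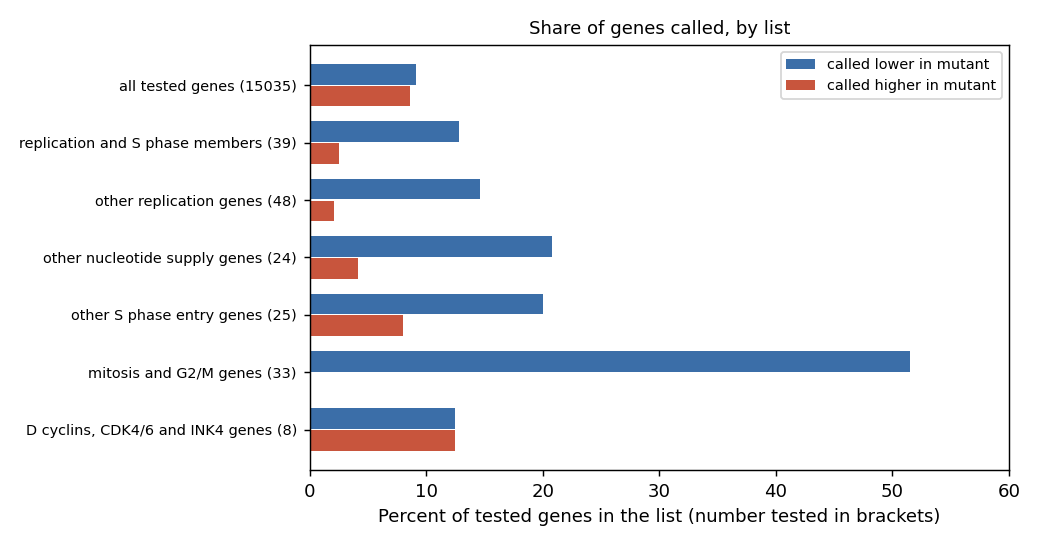
Share of tested genes called by edgeR (x axis, percent) in each list on the y axis, with the number tested in brackets, blue bars for lower and red bars for higher in mutant. Lower calls made up 9.13% of all tested genes, 12.8% of the 39 replication and S phase genes and 51.5% of the mitosis and G2/M genes.

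Markers of other cell types moved between the groups, and their part in the replication results was not tested. The counts called can be read beside all tested genes, of which 9.13% were called lower and 8.63% higher. Pdgfra itself, the gene with the changed allele, fell from 844 ± 21.1 to 358 ± 11.9 CPM (SD, n = 3). Summed pericyte markers (2 of 13 called higher, 0 lower) ran from 1339 to 1675 CPM in control and 1294 to 1619 CPM in mutant libraries. Endothelial markers (6 of 10 higher, 0 lower) ran from 152 to 190 and from 263 to 368 CPM, and skeletal muscle and satellite cell markers (8 of 12 higher, 0 lower) from 108 to 125 and from 229 to 339 CPM. Keratinocyte markers (4 of 9 higher, 0 lower) ran from 503 to 790 and from 929 to 1165 CPM, adipocyte markers (1 of 6 higher, 0 lower) from 531 to 724 and from 754 to 1437 CPM, and mast cell markers (3 of 5 higher, 1 lower) from 79.7 to 97.7 and from 106 to 125 CPM. Fibroblast markers (0 higher, 2 of 10 lower) ran from 69367 to 77198 and from 56848 to 70425 CPM, smooth muscle markers (0 higher, 2 of 7 lower) from 765 to 1041 and from 455 to 672 CPM, and melanocyte markers (0 higher, 1 of 6 lower) from 244 to 376 and from 137 to 262 CPM. Macrophage markers (0 of 10 called by edgeR, DESeq2 or limma-voom, 1 by unadjusted edgeR p) ran from 206 to 391 and from 283 to 348 CPM, and Schwann cell markers (1 of 7 higher, 1 lower) from 255 to 269 and from 219 to 261 CPM. Erythroid markers (0 of 2 tested called by edgeR, 1 by DESeq2 and by limma-voom, 2 by unadjusted edgeR p) ran from 1.22 to 4.87 and from 5.79 to 11.6 CPM. Dissociation response genes (1 of 10 higher, 2 lower) ran from 5579 to 9114 and from 10289 to 11756 CPM. Some of these counts moved with 1 library: higher keratinocyte markers numbered 1 without control 3, mutant 1 or mutant 3, higher skeletal muscle markers 5 without mutant 2, higher macrophage markers 3 and dissociation response genes 3 without control 1, and lower fibroblast markers 4 without mutant 1. Higher erythroid markers numbered 1 without control 1 and 2 without control 2. The adipocyte call, Fabp4, was lost without control 1 or 2 or mutant 3, and without mutant 3 Lpl was called higher instead. The lower mast cell call was lost without control 2 or 3 or mutant 1, and the higher Schwann cell call without control 1 or mutant 1 or 3. The lower smooth muscle calls became 1 without any 1 library other than control 1.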

How the data were processed

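RNA was sequenced from 6 libraries, 3 mice per genotype per the labels' protocols. Groups and replicate numbers were taken from the titles. The names of the deposited mutant files carry a number that is 1 higher than the title's. The authors deposited whole-number counts of reads for every gene, in 1 file a library. The submitters' processing notes name the build mm9 and list cutadapt 1.1, HTSeq 0.5.3, TopHat2 2.0.4, DESeq2 and FastQC without saying in which role or order. The 5 rows that name no gene (36.9% to 41.7% of the listed reads) stayed out. Gene counts per library ran from 11912469 to 18792939, where 3 counts, the limit a count of 0 allows, are 0.16 to 0.252 CPM. Such limits cover counting error only.

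TMM scaling and the filterByExpr filter (minimum count 10, minimum total 15) preceded the test, in R 4.3.3 with edgeR 4.0.16, by its robust quasi-likelihood F test with group as the only term. Benjamini-Hochberg adjustment ran over all 15035 tested genes, with calls at 0.05. Counts by unadjusted p under 0.05 are given without the share of all tested genes at that threshold, so they have no background here. CPM uses the TMM-scaled library sizes. The test was first tested on simulated data. The 14 alternatives were RLE and upper-quartile scaling, DESeq2 1.42.0, limma-voom (limma 3.58.1), no low-count filter, a mean of at least 5 CPM, a fit without robust hyperparameters, the replicate block, and each of the 6 libraries left out in turn. P-values weigh the difference between the groups against the spread between libraries within them. Library pairs within a group differed beyond sampling noise, by chi-square values of 4.73 to 13.3 for each degree of freedom.

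Symbols, exon lengths and gene overlaps came from GENCODE vM21 and promoters from RefSeq, both on a later build than mm9 and matched by identifier or symbol. A symbol was found for 32919 rows. Cdkn2d of the lists matched none. The members and all lists were chosen with earlier results of these data known, so no list was tested as a set. Every member is named. Values in all 6 libraries are given for called members and for the most abundant member of each role. Other pathway lists give up to 4 called genes by adjusted p, and comparison lists up to 3, the most abundant gene and called genes by adjusted p. Promoters shown are those of called genes with an upstream match, plus the pair chosen later. Reads of Pcna could be shared with the copies Pcna-ps1 and Pcna-ps2, which held 0 and 68 counts in all, against 14702 for Pcna.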

Additional observations from a re-analysis of the deposited data

How the results depend on the processing

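Ccne2, Gins2, Pole and Cdc6 were called in all 14 alternatives, with highest adjusted p-values of 0.0145, 0.035, 0.0465 and 0.0472. Members called lower numbered 3 to 6 when 1 library was left out, with 3 without control replicate 3 or mutant replicate 3. Members called higher numbered 2 under upper-quartile scaling, with no filter and with the replicate block, the second being Rfc3 each time, and 1 in every leave-one-out fit. Over all genes, leaving out 1 library gave 753 to 1500 called lower and 658 to 1199 higher. These were 4.95% to 9.8% and 4.33% to 7.83% of the genes tested in those fits. Members whose mutant values lay above every control numbered 4 to 11 when 1 library was left out, where the number cannot fall. That overlap count was recomputed for RLE, upper-quartile scaling and the leave-one-out settings only.

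The replicate numbers share no stated litter or batch, and by the titles' numbers the deviations of same-numbered libraries correlated at 0.12, -0.03 and -0.09, so those numbers were not taken as pairs. By the numbers in the file names only 2 pairs would be shared, with correlations of -0.06 and 0.16. With the titles' replicate number as a block, 6 members were called lower and 2 higher, adding Pcna and Rfc3.

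Of the uncalled members near 0, 10 changed sign. Upper-quartile scaling, which moved the median of all genes to 0.03, gave log2 fold changes of 0.0192 for Gins1, 0.0075 for Lig1, 0.019 for Mcm6 and 0.0207 for Pola2. Limma-voom gave 0.0026 for Gins1 and 0.0017 for Pola2, and no filter gave -0.0005 for Mcm2. Leaving out 1 library gave log2 fold changes of -0.0407 to 0.0659 for Fen1, -0.0667 to 0.0845 for Gins1, -0.079 to 0.0233 for Lig1, -0.0588 to 0.0616 for Mcm2, -0.0537 to 0.0566 for Mcm6, -0.1095 to 0.0818 for Orc6, -0.0561 to 0.0692 for Pola2, -0.2151 to 0.1098 for Pold1, -0.026 to 0.0544 for Prim1 and -0.0044 to 0.0851 for Prim2. None of these 10 genes was called in any of the 14 alternatives. The cause of these changes was not tested.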
